A study of Homo sapiens with 12 samples.

Results

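The genes described here are the nuclear genes for subunits of the mitochondrial respiratory chain and of the ATP synthase, and the question is how their transcripts stood in each of the 4 treatment groups, complex by complex. Members were taken by gene symbol: the NDUFA, NDUFB, NDUFC, NDUFS and NDUFV genes of complex I without the NDUFAF assembly factors, SDHA to SDHD of complex II, the UQCR genes of complex III, the COX4I, COX5, COX6, COX7 and COX8 genes of complex IV, and the ATP5 genes of complex V, leaving out symbols with a hyphen. The rule found 88 of the 19677 genes listed, of which 39 belonged to complex I, 4 to complex II, 9 to complex III, 17 to complex IV and 19 to complex V. Of these, 81 had enough counts to be tested, among 12470 genes tested in all: every member of complexes I, II and III, 11 of complex IV and 18 of complex V. NDUFA4 and NDUFA4L2 were kept in complex I by their symbols, although the NDUFA4 protein is known as a subunit of complex IV. CYC1, the cytochrome c1 subunit of complex III, does not match the symbols and is not among the 9. ATP5IF1, which encodes an inhibitor of the ATP synthase, matches the symbols and is counted in complex V.

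The cells were CAOV3, an established human line of high-grade serous ovarian carcinoma with no genetic change named in the labels, grown in medium with serum. Gene counts from bulk RNA sequencing were analysed for 12 libraries, 3 in each of 4 groups. The control group received DMSO, and the ascites group received DMSO with ovarian cancer ascites at 10% of the medium, the peritoneal fluid that patients with this cancer accumulate. The bezafibrate group received 200 uM bezafibrate, a fibrate drug that activates the peroxisome proliferator-activated receptors (PPARs), and the combination group received bezafibrate and ascites together, each for 16 h. DMSO is named in the labels for control and ascites and not for the drug groups, so a contrast of the drug with its absence includes any difference in solvent. They do not say whether the 3 libraries of a group came from separate cultures or days, or the ascites from more than 1 source, so the p-values measure the spread between these libraries, which may be technical.

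The respiratory chain passes electrons from NADH (complex I) and succinate (complex II) through ubiquinone to complex III, cytochrome c and complex IV, where oxygen is reduced. Complexes I, III and IV pump protons across the inner membrane of the mitochondrion, and complex V, the ATP synthase, uses that gradient to make ATP. Complex II is built of nuclear-encoded subunits alone, while the other complexes also hold subunits encoded by mitochondrial DNA. Nuclear subunit genes are known targets of the transcription factors NRF1, GABP (an ETS-family factor) and YY1, with the coactivator PGC-1alpha, and PPARs are known mainly for driving genes of fatty acid oxidation, which delivers electrons to the same chain. The mitochondrially encoded subunits were not analysed here.

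The 12 libraries held between 11831093 and 18762759 counts, and the common biological coefficient of variation was 3.06%. In a principal component analysis over all genes tested, combination replicate 3 lay at 22.4 on the second component and the other 11 libraries between -9.84 and 4.37, so the counts of members called with the drug are also given without it. Of 8 markers of epithelium and serous carcinoma, 6 were tested, and their summed level lay between 5562 and 6236 CPM, which are counts scaled to the size of the library. KRT7, a keratin, had a mean of 762 CPM in control and 1118 CPM with bezafibrate, and CDH1, the epithelial cadherin, 18.6 and 53.3 CPM. EPCAM had 27.6 and 31.2 CPM in these groups. The keratins KRT8 and KRT18 were lower with bezafibrate, 3005 and 2914 CPM for KRT8 and 1784 and 1720 CPM for KRT18. PAX8, a marker of serous carcinoma, had group means from 0.378 to 1.11 CPM, and MUC16 and WT1 did not pass the filter on low counts. Of 21 markers of blood cells, platelets, fibroblasts and mesothelium, 8 were at 0 counts in all libraries, among them PTPRC and CD3E of leukocytes. Their summed level was 197 to 202 CPM in control, 189 to 197 CPM in ascites, 171 to 183 CPM with bezafibrate and 167 to 183 CPM in the combination, and LUM alone had a mean of 172 CPM over all libraries. The part of these shifts in the results below was not tested.

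Promoters are shown first, because these genes are known to share regulators; the 4 printed are those of members whose averaged drug effect was called in every alternative and whose window holds a match to NRF1 or ETS. RefSeq promoters of GRCh38.p14 (250 bases before to 50 after each start) were at hand for 70 of the 88 members, and for 66 of the 81 tested. Both strands were searched for exact letters. The NRF1 motif (GCGC, then A, any base and GCGC again) was found in 24.2% of the 66 member promoters and in 11.8% of 10038 promoters of all genes tested. The ETS motif CCGGAAG, which GABP binds, was in 30.3% against 19.7%, and the YY1 motif AANATGGCG in 24.2% against 7.08%. At least 1 of these 3 was in 60.6% of member promoters against 33.5% of all, and in 68.1% of 69 promoters of mitochondrial and 49.4% of 77 of cytosolic ribosomal protein genes. The SP1 motif GGGGCGGGG was in 15.2% against 28.0%. The estrogen-related receptor motif TCAAGGTCA was in 1.52% against 0.169%, which is 1 member promoter. The PPAR direct repeat (AGGTCA, any base, then AGGTCA) was in 0 of the 66 member promoters and in 3 of the 10038. Among tested members, NRF1 letters were in 4 of 7 promoters of complex III and 0 of 10 of complex IV, where ETS letters were in 5 of 10. A match describes these letters only and is not a measured binding site. The sequences below run from 230 bases before to 20 bases after the start, 5′ to 3′ on the gene's strand, with matches in capitals: the NRF1 motif in UQCR10, the ETS motif in UQCRH and NDUFA1, and 1 SP1 and 2 ETS motifs in COX5B. They lie on the plus strand at chr22:29767139-29767388, chr1:46303468-46303717, chr2:97645832-97646081 and chrX:119871602-119871851, in the order printed.
UQCR10: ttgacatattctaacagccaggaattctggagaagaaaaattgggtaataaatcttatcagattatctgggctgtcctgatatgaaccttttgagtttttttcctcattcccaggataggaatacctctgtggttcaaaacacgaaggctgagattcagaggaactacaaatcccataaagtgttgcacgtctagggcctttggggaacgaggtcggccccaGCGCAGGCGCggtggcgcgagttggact
UQCRH: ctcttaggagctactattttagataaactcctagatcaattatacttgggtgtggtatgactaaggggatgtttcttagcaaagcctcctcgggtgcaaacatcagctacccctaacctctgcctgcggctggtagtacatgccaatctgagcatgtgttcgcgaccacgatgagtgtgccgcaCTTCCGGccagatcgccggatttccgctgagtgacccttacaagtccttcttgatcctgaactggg
COX5B: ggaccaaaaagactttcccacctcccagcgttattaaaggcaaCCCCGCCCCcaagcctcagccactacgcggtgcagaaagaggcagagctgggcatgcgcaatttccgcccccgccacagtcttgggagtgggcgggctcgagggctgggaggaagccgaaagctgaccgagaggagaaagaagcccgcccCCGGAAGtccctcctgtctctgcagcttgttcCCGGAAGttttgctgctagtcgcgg
NDUFA1: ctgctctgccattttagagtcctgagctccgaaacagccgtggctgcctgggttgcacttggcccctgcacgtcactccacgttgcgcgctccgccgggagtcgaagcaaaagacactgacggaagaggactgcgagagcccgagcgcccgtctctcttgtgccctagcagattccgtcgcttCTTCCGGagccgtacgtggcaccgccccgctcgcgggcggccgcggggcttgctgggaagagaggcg
The NRF1 match of UQCR10 begins 8 bases before the start, and a YY1 match lies 28 bases after it, outside the window printed. The ETS matches begin 46 bases before the start of UQCRH, 47 before that of NDUFA1, and 37 and 5 before that of COX5B. The windows searched for COX7A2, NDUFB6 and ATP5IF1 held none of the 6 motifs. That of ATP5F1E held an SP1 match alone, 72 bases before the start, and no promoter was at hand for ATP5MC3. A link between these motifs and the drug's effect was not tested. Only 1 annotated start was searched per gene.

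Bezafibrate changed the respiratory chain transcripts little, and the ones that passed the test moved by 9.11% to 20.9% of their level against control. Against control, 6 of the 81 tested members rose and none fell, by edgeR's quasi-likelihood test at an adjusted p under 0.05. They were UQCR10 and UQCRH of complex III, COX7A2 of complex IV, ATP5F1E and ATP5MC3 of complex V and NDUFA3 of complex I, with log2 fold changes from 0.13 to 0.27. This was 7.41% of the members, while 17.6% of all genes tested were called, 10.1% higher and 7.55% lower. Over the members the median log2 fold change was 0.031, with 60 of 81 above 0, against a median of -0.0037 over all genes tested.

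When bezafibrate was given with ascites, 7 of 81 members were called against ascites alone, which is 8.64%, and 17.8% of all genes were called, 10.5% higher and 7.29% lower. UQCR10, NDUFB4, COX7A2, UQCRC2 and ATP5MC3 rose, and ATP5IF1 and ATP5MC2 fell, with log2 fold changes from -0.19 to 0.32. The median over the members was 0.0012, with 42 of 81 above 0. UQCR10, COX7A2 and ATP5MC3 were called in both drug contrasts, which share no library; that is 3.7% of members, against 12.6% of all genes tested. The drug's change had the same sign without and with ascites in 49 of 81 members, or 60.5%, and in 73.0% of all genes tested.

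**Figure D1:**
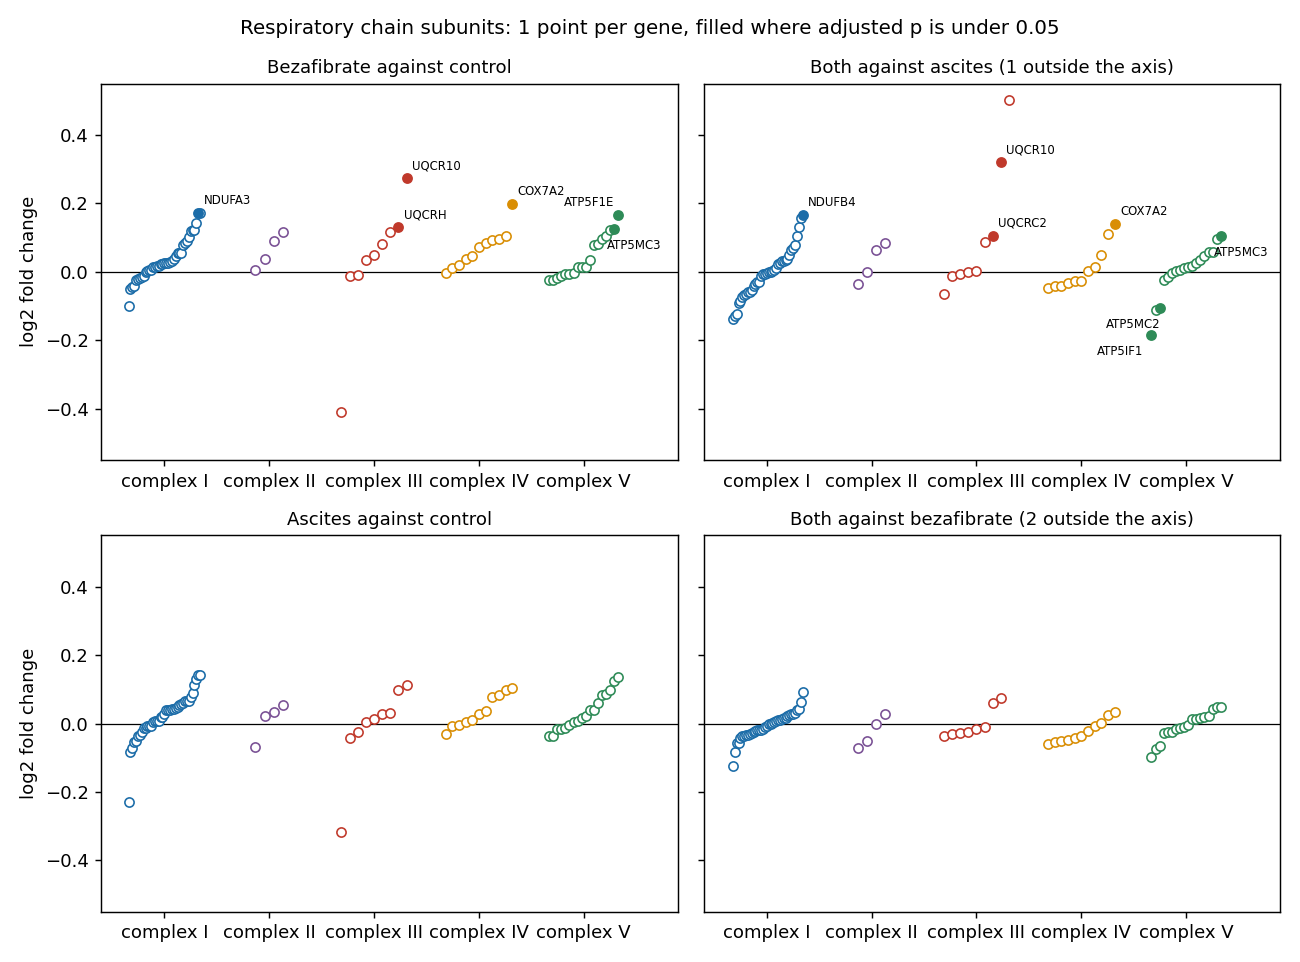
Log2 fold change of the tested subunit genes (vertical axis) in 4 pairwise contrasts, grouped by complex and ordered by value within it. There is 1 point per gene inside the axis, filled where the edgeR adjusted p was under 0.05. Most points lie close to 0, UQCR10 stands highest among the filled points in both drug panels (0.27 and 0.32), and no point is filled in the panels for ascites. The far points are the low-count genes UQCRHL and NDUFA4L2. Outside the axis and not drawn are NDUFA4L2 in the combination against ascites (-0.66), and NDUFA4L2 (-1.07) and UQCRHL (0.59) in the combination against bezafibrate.

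Most members were measured narrowly enough to bound their change. The 95% interval of the fold change lay wholly within 1.2-fold in either direction for 74 of 81 members (91.4%) with bezafibrate against control, compared with 54.0% of all genes tested. In the combination against ascites it did so for 72 of 81 (88.9%, against 52.2% of all genes). Library by library, the bezafibrate group lay wholly above control in 18 members and wholly below in 1, or 22.2% and 1.23%, against 17.2% and 16.3% of all genes. The combination lay wholly above ascites in 9 members and below in 7, or 11.1% and 8.64%, against 16.0% and 14.5% of all genes. The 1 member below control with bezafibrate was UQCRHL.

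No member passed the test with ascites. Against control, 0 of 81 members were called by edgeR, with 9 at an unadjusted p under 0.05 (11.1%), and of all genes 0.0882% were called, all of them lower, and 6.01% had an unadjusted p under 0.05. In the combination against bezafibrate, 0 of 81 were called, 4 had an unadjusted p under 0.05 (4.94%), and of all genes 0.128% were called, 0.0401% higher and 0.0882% lower, and 4.79% had an unadjusted p under 0.05. Medians over the members were 0.023 and -0.011. The 95% interval lay within 1.2-fold for 76 and 79 of the 81 members in these contrasts, or 93.8% and 97.5%, against 65.1% and 66.8% of all genes. The ascites libraries lay wholly above control in 9 members and below in 2, or 11.1% and 2.47%, against 5.64% and 7.06% of all genes. The combination lay wholly above bezafibrate in 4 members and below in 3, against 4.44% and 4.83% of all genes. DESeq2 also called 0 members in both.

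The difference between the drug's effect with and without ascites was tested as an interaction. Of the 81 members 0 were called by edgeR or DESeq2, as were 0% of all genes by edgeR, and 5 members (6.17%) had an unadjusted p under 0.05, against 3.57% of all genes. ATP5IF1 had the lowest of these, at -0.18 (SE 0.066, edgeR unadjusted p 0.00912, adjusted p 0.999). Calls in one drug contrast and not in the other are therefore not shown to differ.

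Averaging the drug's effect over both media used all 12 libraries, and 12 members rose and 1 fell, or 16.0% of 81, against 28.3% of all genes, 15% higher and 13.2% lower. The 95% interval of this effect lay within 1.2-fold for 78 of 81 members (96.3%) and for 63.8% of all genes. Of these 13, the 8 that kept their call in all 19 alternatives tried were NDUFA1, NDUFB6, UQCR10, UQCRH, COX5B, COX7A2, ATP5F1E and ATP5MC3. The other 5 were NDUFA3, NDUFB4, SDHC, SDHD and ATP5IF1, and ATP5IF1 was the one that fell. In 5 members, NDUFB6, UQCR10, UQCRH, COX7A2 and ATP5MC3, all 6 libraries with bezafibrate lay above all 6 without it, or 6.17% of members against 9.01% of all genes. In 0 members did all 6 lie below, while 6.32% of all genes did so.

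**Figure D2:**
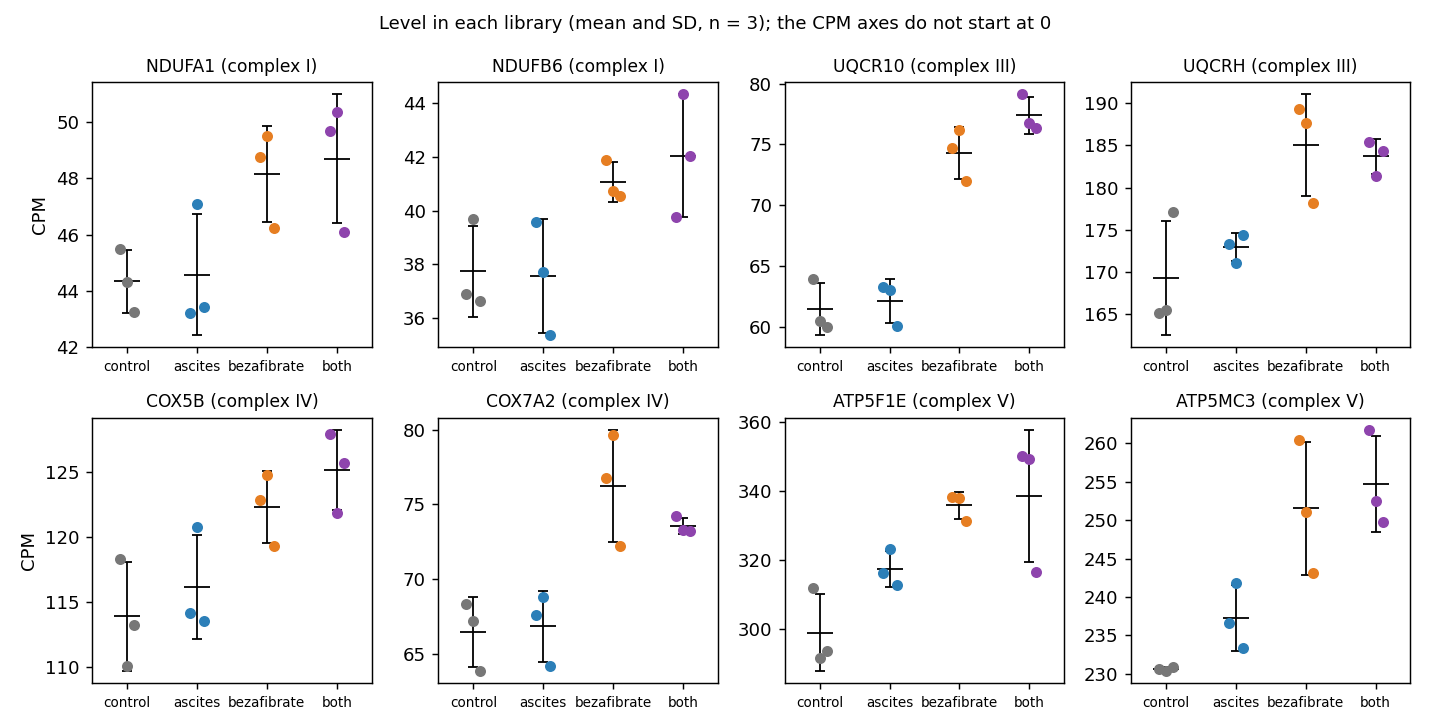
CPM in each library (vertical axes, not starting at 0) of the 8 subunit genes whose averaged drug effect kept its call in all 19 alternatives, by group; points are libraries and bars the mean and SD (n = 3). UQCR10 shows the widest gap, 72.0 to 79.1 CPM with bezafibrate against 60.0 to 63.9 CPM without it, while NDUFA1, COX5B and ATP5F1E have groups that touch or overlap.

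The summed level of a complex gives its transcripts in each library as a whole. For complex I it was 3053 ± 87.4 CPM in control, 3103 ± 14.5 CPM in ascites, 3112 ± 45.9 CPM with bezafibrate and 3102 ± 71.2 CPM in the combination (SD, n = 3). The groups of complex I overlapped throughout, and their means stood between 100% and 101.9% of control. Complex II was at 103.9% of the control mean with bezafibrate, 101.2% with ascites and 101.8% with both, with SDs from 0.707 to 1.74 percentage points. Complex III was at 103.6% with bezafibrate and 103.2% in the combination, against 101.1% in ascites. Complex IV had the highest mean with bezafibrate, 104.5 ± 1.17%, but its control libraries alone spread by 3.35 percentage points (SD). Complex V was at 101.5% in both groups with bezafibrate and at 101.3% in ascites. By library, the bezafibrate group of complex II (562 to 575 CPM) lay wholly above control (539 to 557 CPM). So did both drug groups of complex III, 1444 and 1456 CPM at the lowest against 1442 CPM at the highest in control. Every other treated group overlapped control, and the sums were not tested. Abundant genes weigh most in a sum. Over the 6 libraries with bezafibrate the median was 1508 CPM for ATP5F1B and 272 CPM for SDHA. The sums of their complexes, V and II, averaged 4576 and 567 CPM in the bezafibrate group. In these bulk samples fewer cells and less RNA per cell cannot be told apart, and CPM compare a transcript with the rest of the same library.

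**Figure D3:**
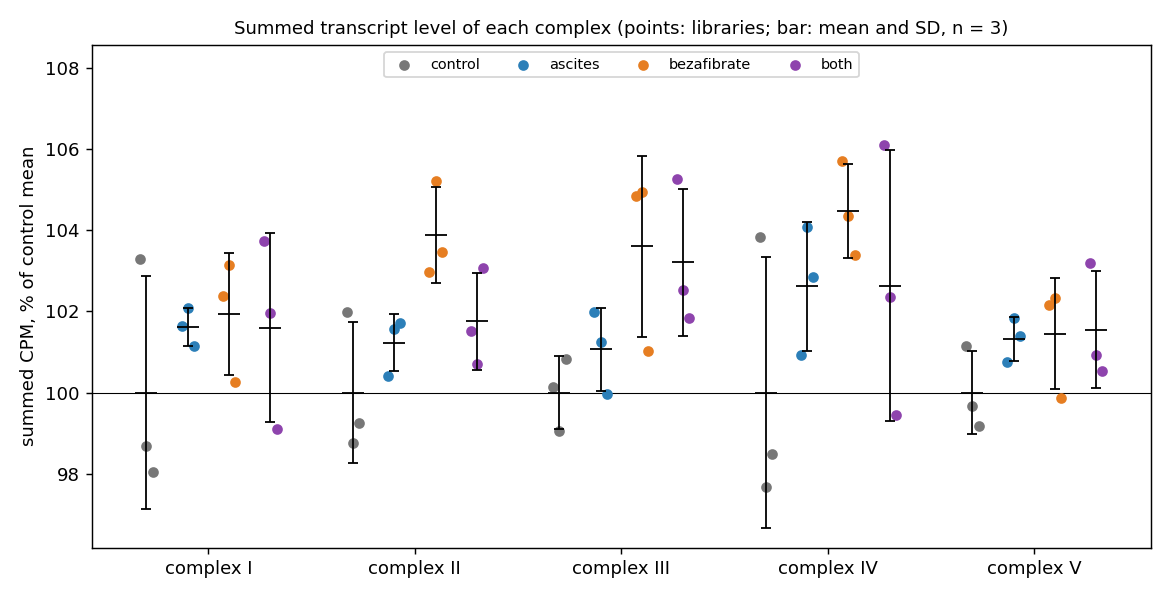
Summed CPM of the members of each complex in each library, as a percentage of the control mean (vertical axis, not starting at 0), by group; points are libraries and bars the mean and SD (n = 3). All group means lie between 100% and 104.5%, and the control libraries of complexes I and IV alone span several percentage points.

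In complex I, with bezafibrate against control, 1 of 39 members was called (2.56%, against 17.6% of all genes), with a median log2 fold change of 0.025. In the combination against ascites it was also 1 of 39 (against 17.8% of all genes), with a median of -0.0043. The 7 core subunits encoded in the nucleus, which carry the flavin and the iron-sulfur clusters, had 0 calls in both contrasts and in the averaged drug effect, where 17.6%, 17.8% and 28.3% of all genes were called. Their log2 fold changes with bezafibrate ran from -0.045 for NDUFS7 to 0.054 for NDUFS1. NDUFS8 had the largest difference among them in the combination against ascites, -0.13 (SE 0.051, edgeR adjusted p 0.083).

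The complex I members called were accessory subunits of its membrane arm. NDUFB6 was at 36.9, 39.7 and 36.6 CPM in control, 39.6, 37.7 and 35.3 CPM in ascites, 41.9, 40.7 and 40.5 CPM with bezafibrate and 39.8, 44.3 and 42.0 CPM in the combination. All 6 libraries with the drug were above all 6 without it, though the lowest with and the highest without, 39.8 and 39.7 CPM, almost met. Its averaged log2 fold change was 0.14 (SE 0.042, edgeR adjusted p 0.0106), and neither single drug contrast passed (adjusted p 0.172 and 0.0663).

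NDUFA1, which lies at chrX:119871832-119876662, was at 45.5, 44.3 and 43.2 CPM in control and 48.8, 49.5 and 46.2 CPM with bezafibrate. In ascites it was at 43.2, 47.1 and 43.4 CPM, and in the combination at 49.7, 50.4 and 46.1 CPM. The groups of the first pair did not overlap, and those of the second did, through 1 library on each side. The averaged change was 0.13 (SE 0.039, edgeR adjusted p 0.0131).

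NDUFB4 was at 60.8, 60.8 and 61.4 CPM in ascites and 69.6, 65.4 and 69.99 CPM in the combination, 0.17 higher on the log2 scale (SE 0.049, edgeR adjusted p 0.0149). In control it was at 62.2, 67.1 and 64.8 CPM and with bezafibrate at 66.2, 69.1 and 63.6 CPM, groups that overlapped. NDUFA3 rose with bezafibrate from 52.8, 48.0 and 49.97 CPM to 54.8, 58.9 and 56.3 CPM, 0.17 higher on the log2 scale (SE 0.057, edgeR adjusted p 0.0292). The NDUFA3 groups were apart in medium without ascites, and with ascites they overlapped, with a change of 0.038 (SE 0.058). NDUFA3 shares exon sequence with TFPT on the other strand, which had a mean of 29.002 CPM, and strand in the counting is not given in the sources used here.

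NDUFA4L2, a paralog of NDUFA4 known from hypoxic cells, was scarcely present, with group means from 0.521 to 1.05 CPM. Its exons overlap those of SHMT2 on the other strand, which had a mean of 320.0 CPM, so its value is uncertain. It had the lowest unadjusted p of complex I for the averaged ascites effect, 0.0304, with a change of -0.65 (SE 0.288, edgeR adjusted p 0.644).

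Complex II had no call in any pairwise contrast. SDHC and SDHD, the 2 subunits that anchor the enzyme in the membrane, rose in the averaged drug effect. These calls were lost in 8 and 7 of the 19 alternatives, DESeq2 among them. SDHD was at 103, 103 and 102 CPM in control, 101, 110 and 107 CPM in ascites, 106, 118 and 108 CPM with bezafibrate and 107, 110 and 116 CPM in the combination. The bezafibrate libraries stood above control, while the combination overlapped ascites. The averaged change of SDHD was 0.090 (SE 0.031, edgeR adjusted p 0.027), and that of SDHC was 0.087 (SE 0.032, edgeR adjusted p 0.0372). SDHC went from 83.9, 83.7 and 80.4 CPM to 91.8, 86.6 and 85.5 CPM without ascites, and from 81.2, 75.1 and 80.3 CPM to 83.1, 82.5 and 85.4 CPM with it, so neither pair of groups overlapped. The catalytic subunits did not pass in any contrast: SDHA, the flavoprotein, had an averaged change of 0.00071 (SE 0.022) and SDHB, the iron-sulfur protein, 0.0021 (SE 0.029). SDHD shares exon sequence with TIMM8B on the other strand, which had a mean of 32.7 CPM and an averaged change of 0.075 (edgeR adjusted p 0.238).

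Complex III held the largest change among the members called. UQCR10, a small membrane-spanning subunit of the bc1 complex, is at chr22:29767369-29770413 with the promoter printed above. It was at 63.9, 60.5 and 60.0 CPM in control and 74.7, 76.2 and 72.0 CPM with bezafibrate. In ascites it was at 63.3, 63.0 and 60.1 CPM and in the combination at 79.1, 76.8 and 76.3 CPM. Every library with the drug was above every library without it, 72.0 CPM or more against 63.9 CPM or less. The log2 fold change was 0.27 (SE 0.046, edgeR adjusted p 1.88e-05), or 20.9% higher, without ascites, and 0.32 (SE 0.047, edgeR adjusted p 1.6e-06), or 24.9% higher, with ascites. Averaged, it was 0.30 (SE 0.033, edgeR adjusted p 2.42e-09). No exon of a protein-coding neighbour overlapped those of UQCR10 in GENCODE release 29.

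UQCRH, the hinge protein that helps cytochrome c1 and cytochrome c to pair, was at 165, 166 and 177 CPM in control and 189, 188 and 178 CPM with bezafibrate. In ascites it was at 173, 171 and 174 CPM and in the combination at 185, 181 and 184 CPM. The groups stood apart in both media, in the first narrowly, between 177 and 178 CPM. The change was 0.13 (SE 0.036, edgeR adjusted p 0.00734) without ascites and 0.087 (SE 0.036, edgeR adjusted p 0.0946) with it. UQCRHL, a near-identical copy of UQCRH, had group means of 1.09 to 1.66 CPM, and reads of the pair may be split in the counting. With the counts of both added, an alternative chosen after seeing the data, the averaged drug effect on UQCRH was 0.11 (edgeR adjusted p 0.000966).

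UQCRC2, one of the core proteins, was at 189, 197 and 187 CPM in ascites and 200.2, 202 and 214 CPM in the combination, a change of 0.10 (SE 0.035, edgeR adjusted p 0.0307). In medium without ascites its change was -0.0098 (SE 0.034). The redox subunit UQCRFS1, the Rieske iron-sulfur protein, did not pass with bezafibrate (0.034, SE 0.034), nor did UQCRC1 (0.049, SE 0.037) or UQCRB (-0.012, SE 0.035). UQCR11, a small accessory subunit, had the lowest unadjusted p of complex III for the averaged ascites effect, 0.225 (change 0.038, edgeR). It was at 134 ± 0.88 CPM in control and 145 ± 7.99 CPM in ascites (SD, n = 3). Between these 2 groups alone the change was 0.11 (edgeR unadjusted p 0.0159, adjusted p 0.753).

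In complex IV, 10 of 11 tested members were above 0 with bezafibrate against control, with a median of 0.073, and 1 was called. In the combination against ascites 5 of 11 were above 0, with a median of -0.026, and the same member, COX7A2, was called. The contrasts differ in this median by more than in any other complex, and the interaction was not called for any of the 11 genes. Without combination replicate 3 the median in the combination against ascites was 0.011. COX4I1, the main regulatory subunit, had changes of 0.021 and -0.026.

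COX7A2, the widely expressed form of subunit VIIa, is at chr6:75237675-75250298. It was at 68.3, 67.2 and 63.9 CPM in control and 76.8, 79.7 and 72.2 CPM with bezafibrate. In ascites it was at 67.6, 68.8 and 64.2 CPM and in the combination at 74.2, 73.3 and 73.2 CPM. The groups did not overlap in either medium. The log2 fold change was 0.20 (SE 0.047, edgeR adjusted p 0.0018) without ascites and 0.14 (SE 0.049, edgeR adjusted p 0.0398) with it.

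COX5B, a zinc-binding subunit on the matrix side, is at chr2:97646062-97648383. It was at 118, 110.0 and 113 CPM in control, 114, 121 and 113 CPM in ascites, 123, 125 and 119 CPM with bezafibrate and 128, 122 and 126 CPM in the combination. Each drug group stood above the group it was compared with, although the highest ascites library was above the lowest bezafibrate library. The single contrasts came near the threshold (edgeR adjusted p 0.0713 and 0.0532), and the averaged change was 0.11 (SE 0.028, edgeR adjusted p 0.00363).

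The isoforms of complex IV known from muscle, testis or lung were nearly or wholly absent. COX4I2, COX6A2, COX7B2 and COX8C had 0 counts in every library, and 3 counts over the 12 libraries, the usual upper limit for a count of 0 (counting error only), would be 0.0173 CPM. COX7A1 had 1 count in all, and COX6B2 had 49, with 2 to 8 in each library. COX6C, a small subunit, had the lowest unadjusted p of complex IV for the averaged ascites effect, 0.0684 (change 0.062, edgeR). It was at 85.8 ± 1.27 CPM in control and 91.7 ± 5.05 CPM in ascites (SD, n = 3). Between these 2 groups alone the change was 0.098 (edgeR unadjusted p 0.045, adjusted p 0.826). In complex V, ATP5MGL, a retrocopy of ATP5MG, had 2 counts in 1 library and was not tested.

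In complex V, 1 subunit of the F1 part and 1 of the 3 genes for the c subunit rose with bezafibrate. ATP5F1E, the epsilon subunit at the foot of the central stalk, is at chr20:59025475-59032335. It was at 312, 292 and 294 CPM in control, 316, 323 and 313 CPM in ascites, 338, 338 and 331 CPM with bezafibrate and 350.0, 349 and 316 CPM in the combination. Both the bezafibrate and the ascites libraries stood above all control libraries, and combination replicate 3, at 316 CPM, fell among the ascites libraries. The change with bezafibrate was 0.17 (SE 0.034, edgeR adjusted p 0.000323), and with ascites present it was 0.095 (SE 0.035, edgeR adjusted p 0.0529). The other 4 subunits of the F1 part did not pass in any contrast. ATP5F1A and ATP5F1B, the alpha and beta subunits that form ATP, had changes of -0.024 (SE 0.026) and -0.0057 (SE 0.025) with bezafibrate.

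The genes ATP5MC1, ATP5MC2 and ATP5MC3 encode the same mature c subunit of the membrane rotor. ATP5MC3 was at 231, 230.4 and 231 CPM in control, 237, 242 and 233 CPM in ascites, 260.4, 251 and 243 CPM with bezafibrate and 262, 253 and 250 CPM in the combination. All 6 libraries with the drug were above all 6 without it. Its change was 0.13 (SE 0.033, edgeR adjusted p 0.00438) without ascites and 0.10 (SE 0.033, edgeR adjusted p 0.0219) with it. ATP5MC2 went the other way with ascites present, from 172, 175 and 168 CPM to 166, 161 and 151 CPM, a change of -0.11 (SE 0.038, edgeR adjusted p 0.049). Without ascites ATP5MC2 changed by -0.018 (SE 0.037). ATP5MC1 did not pass in either drug contrast (0.014 and -0.025, SE 0.065 and 0.068).

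ATP5IF1 encodes the inhibitor that stops the ATP synthase from running backwards and consuming ATP, and it is at chr1:28236124-28238100. It was at 107, 119 and 118 CPM in ascites and 107, 101 and 93.5 CPM in the combination. The highest library of the combination stood just above the lowest of ascites. The log2 fold change was -0.19 (SE 0.047, edgeR adjusted p 0.00365), or 12.1% lower. In control it was at 111, 107 and 107 CPM and with bezafibrate at 105, 110 and 109 CPM, which overlap, with a change of -0.0039 (SE 0.046). ATP5PD, subunit d of the peripheral stalk, was called in 1 of the contrasts, the combination against control, at 0.15 (SE 0.049, edgeR adjusted p 0.0269). It was at 63.5, 61.5 and 58.4 CPM in control, 64.7, 70.03 and 65.7 CPM in ascites, 66.2, 66.0 and 65.3 CPM with bezafibrate and 68.7, 67.0 and 67.7 CPM in the combination, so each of the 3 treated groups stood above control.

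The combination against control, which shares its libraries with the contrasts above, gave 7 members higher and 0 lower, or 8.64% of 81 against 18.2% of all genes, 10.3% higher and 7.96% lower. UQCR10 had the largest change there, 0.33 (SE 0.047, edgeR adjusted p 8.06e-07), followed by ATP5F1E at 0.18. The others were ATP5PD, COX7A2, ATP5MC3, COX5B and UQCRH. The averaged ascites effect called 0 members by edgeR or DESeq2, with 3 at an unadjusted p under 0.05 (ATP5PD, NDUFA4L2 and SDHC, or 3.7%), while of all genes 0.281% were called, 0.0481% higher and 0.233% lower, and 6.97% had an unadjusted p under 0.05. Its 95% interval lay within 1.2-fold for 79 of 81 members and for 77.3% of all genes.

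Several of these calls lay close to the threshold. UQCR10, ATP5F1E and COX7A2 with bezafibrate against control, and UQCR10 and ATP5IF1 in the combination against ascites, kept their calls in all 20 alternatives. With bezafibrate against control, ATP5MC3 was lost without bezafibrate replicate 1 (edgeR adjusted p 0.0575), UQCRH without control replicate 1 or 2 or bezafibrate replicate 1 (up to 0.0545), and NDUFA3 in 6 alternatives (up to 0.161), among them leaving out control replicate 2 or 3 or bezafibrate replicate 2 or 3. In the combination against ascites, NDUFB4 was lost in 2 alternatives, ATP5MC3 in 6, UQCRC2 in 7, COX7A2 in 10 and ATP5MC2 in 11, with edgeR adjusted p up to 0.233. For the combination against control, UQCRH and COX5B were each lost in 3 of 20 alternatives, ATP5PD in 6 and COX7A2 in 7. UQCR10, ATP5F1E and ATP5MC3 kept their calls there in all 20. In the averaged drug effect, ATP5IF1 was lost in 5 of 19 alternatives, NDUFB4 in 6, SDHD in 7, SDHC in 8 and NDUFA3 in 13. Without combination replicate 3 the members called were 10 with bezafibrate against control, 8 in the combination against ascites, 13 in the combination against control and 15 in the averaged drug effect.

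The electron carriers and the enzymes that feed ubiquinone from outside complexes I and II were read beside the subunits. Of 9 tested, 4 rose and 1 fell with bezafibrate against control (55.6%), and 4 rose in the combination against ascites (44.4%). ETFA, a subunit of the flavoprotein that collects electrons from fatty acid oxidation, went from 216, 221 and 210 CPM in control to 352, 330.4 and 338 CPM with bezafibrate, 0.66 higher on the log2 scale (SE 0.034, edgeR adjusted p 4.39e-18). ETFDH, which hands those electrons to ubiquinone, changed by 0.63 (SE 0.074, edgeR adjusted p 1.5e-08), and by 0.79 with ascites present. ETFB, the other subunit of the flavoprotein, moved less, from a mean of 113 CPM in control to 123 CPM with bezafibrate. Its means in ascites and in the combination were 114 and 120 CPM. CYC1, cytochrome c1, is a subunit of complex III that the symbol rule left out, and CYCS, cytochrome c, carries electrons to complex IV. Neither passed with bezafibrate against control, with changes of 0.029 (SE 0.039) and 0.031 (SE 0.027). PDK4 and CPT1A, known PPAR targets that spare glucose and admit fatty acids to the mitochondrion, had changes of 4.07 and 0.97 in the same contrast. UCP2, an inner-membrane carrier, had a change of 0.32.

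**Figure D4:**
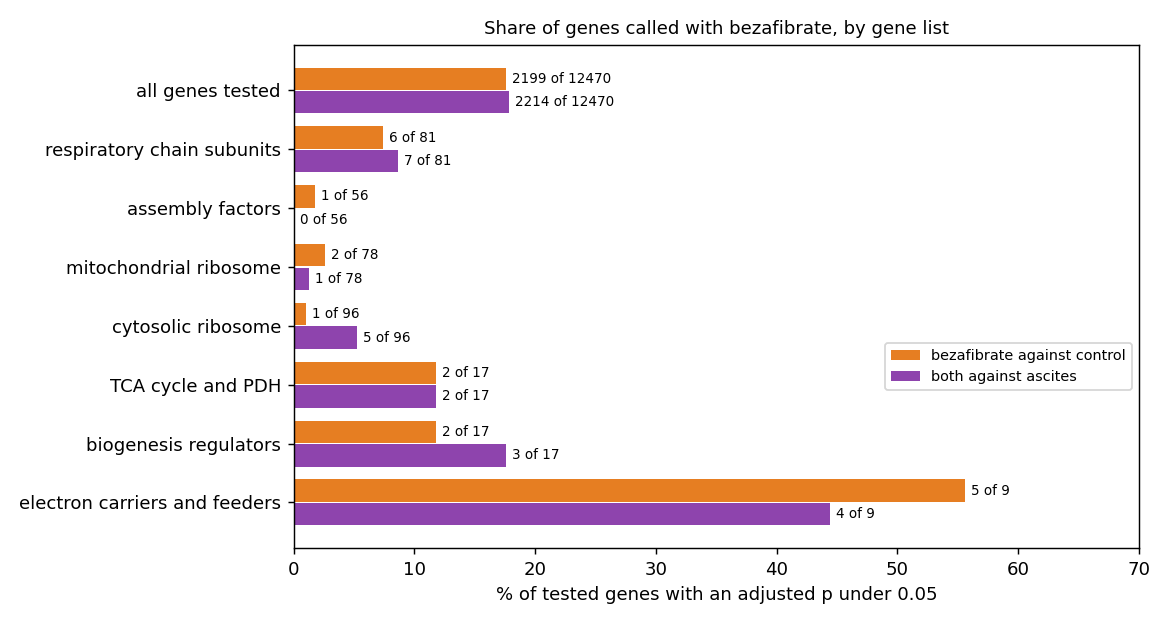
Share of tested genes with an edgeR adjusted p under 0.05 (horizontal axis, %) for the respiratory chain subunits and related gene lists, with bezafibrate against control and in the combination against ascites; the counts stand beside the bars. The subunits are at 7.41% and 8.64%, below the 17.6% and 17.8% of all genes, and the electron carriers and feeders at 55.6% and 44.4%.

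The genes that build or drive the chain were read against the same shares of all genes, 17.6% with bezafibrate and 17.8% in the combination against ascites. Of 56 assembly factors, COA8, a protein of complex IV biogenesis, rose with bezafibrate (0.25, SE 0.078, edgeR adjusted p 0.0219) and 0 were called in the combination against ascites. Of 17 tested regulators of mitochondrial biogenesis, 2 (11.8%) and 3 (17.6%) were called in these contrasts, the latter near the share of all genes. ESRRA, an estrogen-related receptor, rose in both drug contrasts (0.17 and 0.18, SE 0.041 and 0.042). GABPA, the DNA-binding subunit of GABP, rose without ascites (0.18, SE 0.047, edgeR adjusted p 0.00391), and its change with ascites was 0.082 (SE 0.048). PPARGC1A, which encodes PGC-1alpha, had a mean of 2.85 CPM and a change of 0.13 (SE 0.202), NRF1 one of -0.0034 (SE 0.081), and TFAM, which packages and transcribes mitochondrial DNA, one of -0.013 (SE 0.035). With ascites present PPARGC1B rose (0.18, SE 0.062) and PPRC1 fell (-0.12, SE 0.040), at edgeR adjusted p values of 0.0367 and 0.0385. Of 78 mitochondrial ribosomal protein genes, 2 (2.56%) and 1 were called in these contrasts.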

How the data were processed

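RNA was sequenced in bulk from 12 libraries, 3 in each of 4 groups read from the sample titles. The values are whole-number counts per gene deposited by the authors, 1 table per library. Per the submitters' processing notes, Trimmomatic 0.39, STAR 2.7.9a, RSEM 1.3.3 and DESeq2 1.28.1 were used with GRCh38. The annotation release, any rounding and the use of strand are not given in the sources used here. In GENCODE release 29, exons of 17 members overlap exons of a protein-coding neighbour on the same strand, and those of 25 on the other strand. Their counts may therefore hold reads of both genes. Overlaps with noncoding genes were not searched.

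Counts were tested as deposited with edgeR 4.0.16 in R 4.3.3: genes kept by filterByExpr at a minimum count of 10, TMM scaling, 1 mean per group over all 12 libraries, robust quasi-likelihood F tests and Benjamini-Hochberg adjustment over all 12470 genes tested, with a call at an adjusted p under 0.05. The contrasts fitted were 5 between pairs of groups, the interaction, and the drug and the ascites effect each averaged over the other. The SE was taken from each log2 fold change and its F value, and intervals are 95% intervals from the same fit. CPM use TMM library sizes. The code was tested on simulated data. DESeq2 1.42.0, other scalings, filters and left-out libraries were alternatives. The members and gene lists were chosen with earlier results of these data known, so lists are described by counts and medians without a test. Named were members called in any contrast, the member of each complex with the lowest p for the averaged drug and ascites effects, tissue-restricted or untested members, and a set of carriers and regulators. Counts of replicates within a group differed by more than sampling noise (chi-square per degree of freedom 1.44 to 4.45). Figures were drawn with matplotlib 3.10.9.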

Additional observations from a re-analysis of the deposited data

How the results depend on the processing

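Over 152 named gene results, 2844 values from the alternative settings kept their side of the threshold, 104 lost a call and 25 gained one. Of the called values 0 turned direction, while 81 values that were not called changed sign; 66 of the losses and 18 of the gains came from leaving out a library, which also lowers the number of samples. UQCRH with the UQCRHL counts added, chosen after seeing the data, kept its side of the threshold in all 8 contrasts, and ATP5MF and NDUFC2 with the counts of their read-through genes added were not called. Fitting only the 2 groups compared gave 11 members called with bezafibrate against control (6 with all groups), 3 in the combination against ascites (7), 1 in ascites against control (0) and 4 in the combination against control (7). DESeq2 called 4 in the combination against ascites. The cause was not tested. With 1 library left out, the counts were 4 to 10 with bezafibrate against control (lowest without control replicate 2, highest without combination replicate 3), 3 to 8 in the combination against ascites (lowest without ascites replicate 1) and 3 to 13 in the combination against control (lowest without control replicate 2, 4 without control replicate 3, highest without combination replicate 3). Of 825 medians of a complex under alternatives, 20 moved by more than the spread between replicates. With a library left out, the median log2 fold change with bezafibrate against control was 0.0081 to 0.035 for complex V. In the combination against ascites it was -0.035 to 0.0087 for complex I, 0.0068 to 0.049 for complex II, -0.00377 to 0.042 for complex III and -0.028 to 0.011 for complex IV. It was 0.0091 to 0.045 for complex V in ascites against control. In the combination against bezafibrate it was -0.026 to 0.021 for complex III, -0.056 to 0.011 for complex IV and -0.013 to 0.016 for complex V. In the combination against control it was 0.018 to 0.10 for complex III and -0.0019 to 0.088 for complex IV. In the interaction it was -0.096 to -0.040 for complex IV and -0.075 to -0.0075 for complex V, and in the averaged drug effect 0.011 to 0.052 for complex III. The labels give the groups the same replicate numbers without naming a shared batch, and deviations of same-numbered libraries correlated at -0.14 to 0.061 over 18 pairs, with 1 of 12 libraries closest to its own number. With the replicate number as a block, 6 members were called with bezafibrate against control, 7 in the combination against ascites, 7 in the combination against control and 12 in the averaged drug effect. Depth limits NDUFA4L2, UQCRHL and the 7 untested members.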
